A study of Homo sapiens with 6 samples.

Results

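The RNAs described here are 10 long noncoding RNAs: the snoRNA host genes GAS5, SNHG1, SNHG5, SNHG6, SNHG7, SNHG8, SNHG12 and SNHG15, and the nuclear RNAs MALAT1 and NEAT1. They were chosen by symbol, and all 10 were found among the 57820 gene rows of each library and passed the expression filter, which kept 17679 genes. RNA was measured by poly-A RNA-seq in U266, a human multiple myeloma cell line. One group, called MYC, is U266 transduced with a lentiviral vector that carries the MYC gene behind the EF1A promoter, which is active in most cell types. The other is control U266, and whether these cells also carry a vector is not stated in the labels. Each group has 3 libraries of this 1 cell line in the same medium, and nothing says that they came from separate cultures, so the p-values measure only the spread between these samples, which may be technical.

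A snoRNA host gene is spliced in the usual way, and small nucleolar RNAs are cut out of its introns. These guide the methylation or pseudouridylation of ribosomal RNA in the nucleolus. In a noncoding host, the kind described here, the spliced RNA that remains has little coding capacity. Many hosts start with a run of pyrimidines, the terminal oligopyrimidine signal shared with ribosomal protein mRNAs. The spliced RNAs of noncoding hosts are often degraded by nonsense-mediated decay when they are translated. GAS5 was named for its rise in growth-arrested cells. MALAT1 is a very abundant RNA of nuclear speckles, where splicing factors gather, and NEAT1 is the scaffold of paraspeckles, nuclear bodies that hold RNA-binding proteins such as SFPQ and NONO. MALAT1 and the long form of NEAT1 have no poly-A tail, because an enzyme cuts their ends from a tRNA-like structure, and a triple helix of U-rich and A-rich stretches protects the end. The short form of NEAT1 is polyadenylated.

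Summed expected counts, the reads that the authors' software assigned to genes, were 27139978 to 158667309 in the MYC libraries and 55026416 to 130576913 in the control libraries. MYC itself, the check of the labels, stood at 105.4, 110.3 and 92.1 CPM (counts scaled to library size, with TMM composition factors) in MYC libraries, against 3.91, 4.16 and 4.51 CPM in control libraries. All 8 plasma cell markers examined had a mean of at least 1 TPM (the deposited level scaled for transcript length). Their summed level was 3861 to 4398 TPM in MYC libraries and 6879 to 7258 TPM in control libraries. Summed markers of T and NK cells were 17.7 to 18.98 TPM in MYC libraries and 9.37 to 11.9 TPM in control libraries, and those of B cells were 15.1 to 16.8 TPM in MYC libraries and 15.4 to 15.8 TPM in control libraries. Markers of myeloid cells summed to at most 1.88 TPM in any library, of stromal cells to at most 4.43 TPM and of epithelial cells to 7.59 to 8.69 TPM in MYC and 4.02 to 4.78 TPM in control libraries. The part of these differences in the results below was not tested.

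GAS5, SNHG5, SNHG12 and SNHG15 were higher in MYC cells, by 1.88-fold, 1.54-fold, 1.63-fold and 1.41-fold. NEAT1 and SNHG7 were lower, but SNHG7 turned to higher once GC content was taken into account. SNHG1, SNHG6, SNHG8 and MALAT1 did not pass the test. So 6 of the 10 were called at an adjusted p under 0.05 (edgeR, Benjamini-Hochberg), beside 60.8% of all genes tested. Of these, 4 were higher and 2 lower, beside 28.8% of all genes called higher and 32.1% called lower. The median log2 fold change was 0.08 over the 10 RNAs and -0.02 over all genes tested. Calls in these data were common, and the counts for the 10 RNAs are read against that background. Among the 2417 long noncoding RNA genes tested, 43.9% were called, 13% higher and 30.9% lower, with a median log2 fold change of -0.20. The CPM ranges of MYC and control libraries did not overlap for 6 of the 10 RNAs (GAS5, SNHG5, SNHG12 and SNHG15 higher, SNHG7 and SNHG8 lower), beside 67.1% of all genes. In TPM they did not overlap for 7 (5 higher, with SNHG8 among them, and SNHG7 and NEAT1 lower), beside 59.8% of all genes.

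GC content moved with the comparison. Across genes, log2 fold change and transcript GC content had a Spearman's rho of -0.56 (a description over 17049 genes of 6 shared libraries). Genes with 42 to 46% GC had a median log2 fold change of 0.20, and genes with 58 to 62% GC had one of -0.73. The 10 RNAs range from 39.996% GC (MALAT1) to 59.4% GC (SNHG7). The test of each of the 10 RNAs is therefore also given with a GC offset, which removes each library's smooth trend of counts on GC content. With this offset, 5 of the 10 were called higher and 4 lower, beside 25.4% and 33.6% of all genes tested, and 10.9% and 34.4% of the long noncoding RNA genes. What part of the trend is technical was not tested. CPM and TPM values, and the sums, shares and ratios formed from them, carry no such correction.

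**Figure D1:**
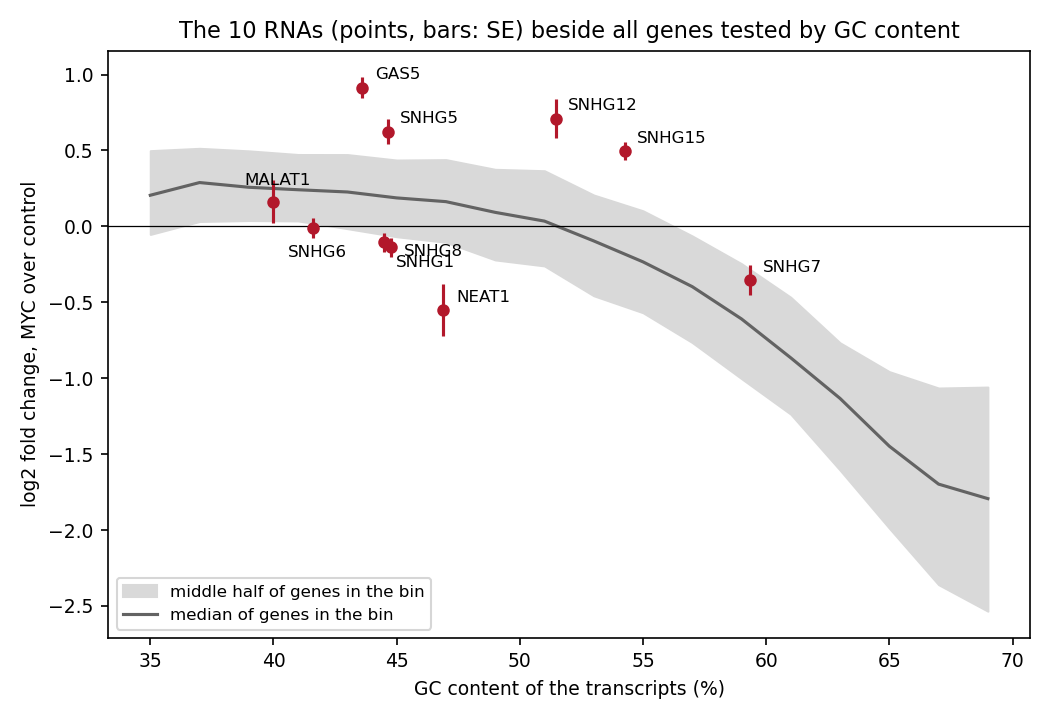
Log2 fold change of MYC over control against the GC content of each gene's transcripts in percent: red points are the 10 RNAs with their SE, the grey line is the median of all genes tested in bins of GC content, and the band spans the lower to the upper quartile of each bin. GAS5, SNHG5, SNHG12 and SNHG15 lie above the band, while SNHG1, SNHG6, SNHG8, MALAT1 and NEAT1 lie below the line at their GC content, and SNHG7, at 59.4% GC, is below 0 but above the line, so its sign depends on the GC offset.

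The starts of the host genes are shown because the pyrimidine run at the start is the sequence feature that marks many of them as a class. RefSeq promoter windows (GRCh38.p14, 250 bases before to 50 bases after the annotated start) were matched for 7 of the 10 genes: GAS5, SNHG1, SNHG5, SNHG7, SNHG8, SNHG12 and MALAT1, which has 2 windows. SNHG6, SNHG15 and NEAT1 were not matched. A run of at least 5 C or T bases that touches the start, on the transcribed strand, was present in 6 of the 8 windows and in 18.2% of the 35116 windows in the table. The 6 include a window of MALAT1, which is not a host, with a run of 11 bases, so the run is not particular to the hosts. The last 50 bases before the start (130 for SNHG7) and the first 50 after it read as follows, with that run in capitals.
SNHG5, chr6:85678684-85678783, minus strand: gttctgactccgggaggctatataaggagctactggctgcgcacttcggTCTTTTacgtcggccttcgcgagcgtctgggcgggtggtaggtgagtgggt
SNHG12, chr1:28581824-28581923, minus strand: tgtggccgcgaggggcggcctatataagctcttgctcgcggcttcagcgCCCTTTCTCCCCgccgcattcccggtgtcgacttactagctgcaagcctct
SNHG1, chr11:62855836-62855935, minus strand: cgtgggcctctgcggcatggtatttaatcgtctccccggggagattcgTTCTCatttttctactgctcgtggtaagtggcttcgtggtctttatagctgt
SNHG8, chr4:118278712-118278811, plus strand: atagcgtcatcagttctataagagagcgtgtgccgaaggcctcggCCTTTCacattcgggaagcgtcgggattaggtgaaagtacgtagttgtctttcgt
SNHG7, chr9:136728135-136728314, minus strand: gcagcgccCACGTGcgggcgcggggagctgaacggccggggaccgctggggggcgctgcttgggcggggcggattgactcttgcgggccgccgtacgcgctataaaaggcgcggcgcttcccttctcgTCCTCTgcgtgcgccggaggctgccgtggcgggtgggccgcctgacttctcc
SNHG12 has the longest run of these, 12 bases, and the other 4 have 5 or 6. In the GAS5 window the run is 3 bases long. SNHG7 also holds CACGTG, the motif known to be bound by MYC with its partner MAX, which is the other stretch in capitals, with its first base at position -122 from the start. This motif reads the same on both strands. It was found in 1 of the 8 windows and in 7.26% of all windows. A run that touches the start may lie partly before it, and so outside the RNA as annotated. All but the last base of the SNHG8 run lie before the annotated start, while most of the SNHG5, SNHG12 and SNHG1 runs lie after it. SNHG12 and SNHG5, whose RNA rose, thus have a run that touches the start, as do SNHG1 and SNHG8. The RNAs of SNHG1 and SNHG8 did not pass the test without an offset and were called lower with the GC offset. The runs differ in how much is transcribed, and no difference between these sets was tested.

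GAS5 (ENSG00000234741.3), the host of a cluster of box C/D snoRNAs, changed most among the 8 hosts in the fit without an offset. It had 192.6, 196.6 and 180.8 CPM in MYC libraries, against 98.6, 109.01 and 95.1 CPM in control libraries. The lowest MYC library stood well above the highest control. This is a log2 fold change of 0.91 ± 0.07 (SE, n = 3 each), with an adjusted p of 1.57e-05 by edgeR's quasi-likelihood test, and lies at percentile 93.5 of all genes tested. The GC offset brought it to 0.64 ± 0.07 (adjusted p = 7.06e-05, edgeR). With that offset it was close to SNHG12 (0.64 ± 0.13) and SNHG15 (0.61 ± 0.05). The span of an opposite-strand gene, ZBTB37, overlaps that of GAS5 by 801 bases in GENCODE 29, introns included. A library without strand does not tell apart reads from a stretch that both genes keep in their RNA. The expected counts of GAS5 were whole (within 0.005) in all 6 libraries.

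SNHG5 (ENSG00000203875.6), the host of the SNORD50 snoRNAs, had 225.3, 231.7 and 199.8 CPM in MYC libraries, against 156.7, 139.4 and 129.99 CPM in control libraries. The groups did not overlap, and MYC library 3 was the lowest of its group. On the log2 scale SNHG5 was 0.62 ± 0.08 higher (SE; edgeR adjusted p = 0.000307), and 0.36 ± 0.08 higher once the GC offset was applied (edgeR adjusted p = 0.00279).

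SNHG12 (ENSG00000197989.9), which hosts H/ACA snoRNAs and SNORD99, is among the lowest of the 10 RNAs, at percentile 69.9 of all genes tested by TPM. Its values were 15.1, 14.8 and 19.5 CPM in MYC libraries, against 8.75, 10.4 and 10.99 CPM in control libraries. MYC library 3 was high within its group, and all MYC libraries were above all controls. SNHG12 was thus 0.71 ± 0.13 log2 units higher (SE; edgeR adjusted p = 0.00157), and 0.64 ± 0.13 after the GC offset (edgeR adjusted p = 0.00201).

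SNHG15 (ENSG00000232956.4), the host of SNORA9, had the tightest groups among the hosts that rose. It stood at 43.4, 41.3 and 42.5 CPM in MYC libraries, against 28.7, 30.2 and 31.2 CPM in control libraries. The difference was 0.49 ± 0.06 log2 units (SE; edgeR adjusted p = 0.00017). Unlike for GAS5 and SNHG5, the estimate was larger with the GC offset, at 0.61 ± 0.05 (edgeR adjusted p = 1.27e-05). GAS5, SNHG5, SNHG12 and SNHG15 were called higher in each of the 20 alternative settings.

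SNHG1 (ENSG00000255717.2), the host of SNORD22 and SNORD25 to SNORD31, stood at 145.1, 140.8 and 162.3 CPM in MYC libraries, against 161.2, 161.2 and 159.8 CPM in control libraries. MYC library 3 was as high as the controls and the other MYC libraries were lower. Its log2 fold change was -0.11, with a 95% interval of -0.25 to 0.04 (adjusted p = 0.184, edgeR). With the GC offset SNHG1 was called lower, at -0.38 ± 0.05 (adjusted p = 0.000134, edgeR), and without MYC replicate 3 it was also called lower, at -0.17 (adjusted p = 0.0218, edgeR).

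SNHG6 (ENSG00000245910.4), the host of SNORD87, had 58.9, 54.99 and 51.1 CPM in MYC libraries and 57.5, 54.97 and 53.6 CPM in control libraries. The ranges overlapped throughout. For SNHG6 the log2 fold change was -0.01, with a 95% interval of -0.17 to 0.14 (adjusted p = 0.903, edgeR). After the GC offset it was called lower, at -0.31 ± 0.08 (adjusted p = 0.00669, edgeR).

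SNHG8 (ENSG00000269893.2), the host of SNORA24, had a direction that depended on length. It had 37.7, 39.1 and 38.03 CPM in MYC libraries, against 41.4, 44.4 and 40.7 CPM in control libraries, so that the MYC libraries were lower without overlap. In CPM the log2 fold change was -0.14, with a 95% interval of -0.28 to -0.002 for this 1 gene, and missed the threshold over all genes (adjusted p = 0.0745, edgeR). In TPM the order was the other way, with 204.6, 213.4 and 223.7 TPM in MYC libraries against 191.97, 176.2 and 184.3 TPM in control libraries. With the deposited effective length as an offset SNHG8 was called higher, at 0.25 (adjusted p = 0.00757, edgeR), as were 26.1% of all genes in that fit, while 29% were called lower there, and with the GC offset it was called lower, at -0.41 ± 0.05 (adjusted p = 0.00018, edgeR). With both offsets together, a setting chosen after the values were seen, it was -0.01 (adjusted p = 0.89, edgeR). SNHG8 is therefore given without a direction.

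SNHG7 (ENSG00000233016.2), the host of SNORA17A and SNORA17B, is also low among the 10, at percentile 67.7 of all genes tested by TPM, and the most GC-rich of them. It had 11.3, 9.91 and 9.32 CPM in MYC libraries, against 12.1, 14.1 and 12.6 CPM in control libraries, again without overlap. SNHG7 was called lower at -0.35 ± 0.10 log2 units (SE; edgeR adjusted p = 0.012), but called higher at 0.26 ± 0.06 with the GC offset (edgeR adjusted p = 0.00551), and is likewise given without a direction. The gene span of SNHG7, introns included, overlaps that of the opposite-strand gene DIPK1B by 2685 bases in GENCODE 29. SNHG6 likewise overlaps the opposite-strand gene MCMDC2, by 365 bases. Other opposite-strand overlaps were 396 bases of MALAT1 with a long noncoding RNA gene, 42 bases of GAS5 with GAS5-AS1 and 8 bases of SNHG12 with TRNAU1AP. SNHG7 and SNHG6 were the members whose expected counts were not whole in every library, as happens where a read is split between genes. The counts of the other 8 were whole (within 0.005) in all 6 libraries.

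**Figure D2:**
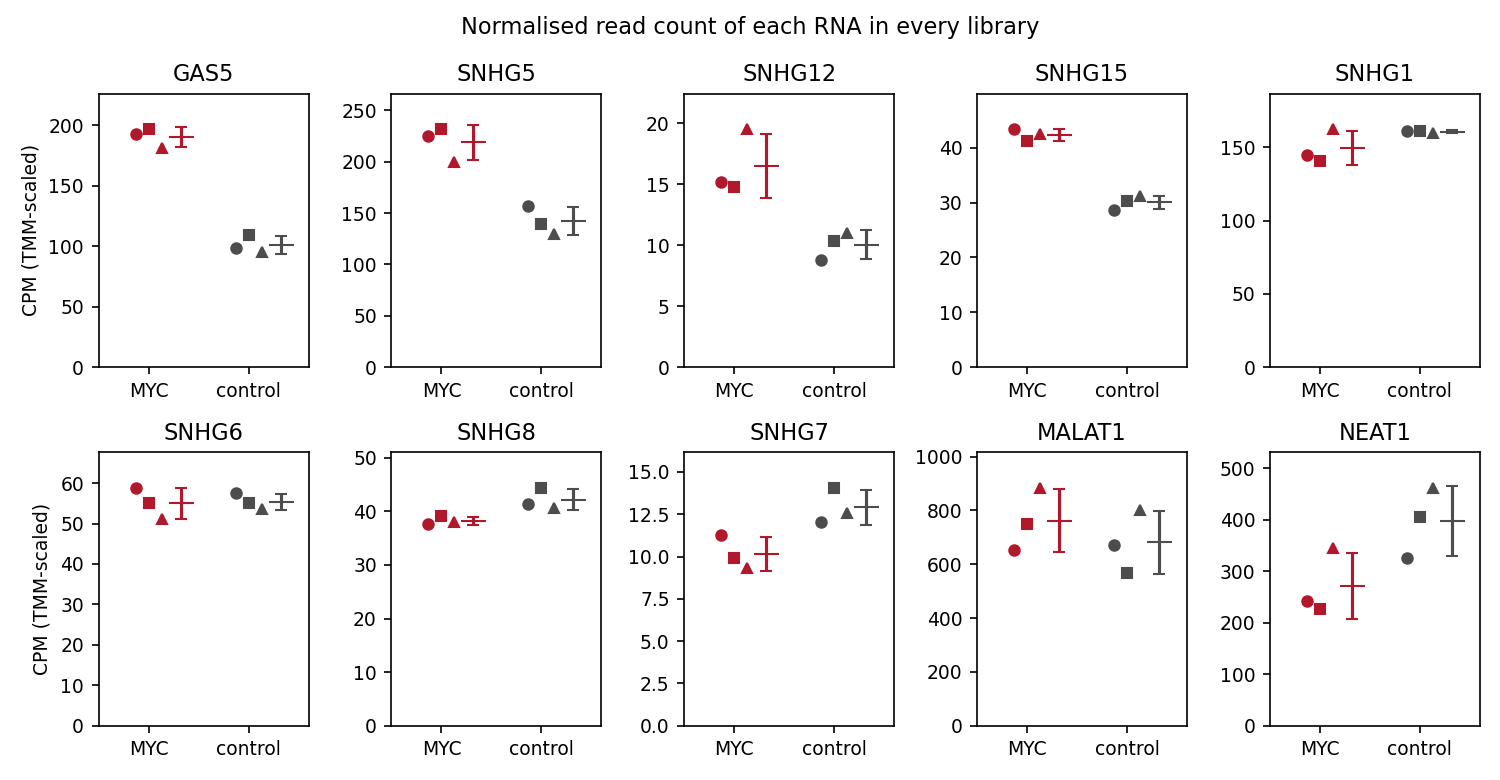
CPM of each RNA in every library, with MYC left of control in each panel and axes that start at 0: circles, squares and triangles are replicates 1, 2 and 3, and the bar beside them is the mean ± SD (n = 3 each). GAS5, SNHG5, SNHG12 and SNHG15 show MYC libraries above all controls, SNHG8 and SNHG7 show them below all controls in CPM although both turn under another scaling, and the remaining panels overlap.

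The MALAT1 and NEAT1 ends are shown because MALAT1 and the long form of NEAT1 lack the poly-A tail that the library preparation selects, yet hold A runs of their own. Both stretches come from GENCODE 29 transcripts (GRCh38, chromosome 11, plus strand), with the U-rich motifs and the A runs of the triple helix region in capitals and T written for U.
MALAT1, transcript bases 8263 to 8357: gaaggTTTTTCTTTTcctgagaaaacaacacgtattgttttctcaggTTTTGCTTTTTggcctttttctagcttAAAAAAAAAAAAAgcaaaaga
NEAT1 long form, transcript bases 22649 to 22743: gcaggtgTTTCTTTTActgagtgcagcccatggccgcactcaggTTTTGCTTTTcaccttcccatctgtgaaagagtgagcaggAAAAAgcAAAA
The run in MALAT1 is 13 A bases long and is part of the gene itself. The NEAT1 long form ends in shorter A runs. The gene tables give 1 value per gene, so the short and long forms of NEAT1 were not told apart.

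MALAT1 (ENSG00000251562.3) had 653.9, 748.1 and 884.5 CPM in MYC libraries, against 672.7, 569.3 and 801.9 CPM in control libraries. The groups overlapped widely. Its log2 fold change was 0.16, with a 95% interval of -0.16 to 0.48 (adjusted p = 0.348, edgeR), and -0.15 ± 0.11 with the GC offset (adjusted p = 0.258, edgeR). None of the 20 alternatives called it, and the interval spans changes of either sign.

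NEAT1 (ENSG00000245532.4) had 242.3, 227.5 and 344.9 CPM in MYC libraries, against 325.7, 405.8 and 462.5 CPM in control libraries. MYC library 3 lay above control library 1, so the groups overlapped in CPM. NEAT1 was called 1.47-fold lower, at -0.55 ± 0.17 log2 units (SE; edgeR adjusted p = 0.0222), at percentile 24.5 of all genes tested. The call ended without control replicate 2 (-0.55, adjusted p = 0.0629), control replicate 3 (-0.44, adjusted p = 0.0777), MYC replicate 1 (-0.48, adjusted p = 0.0517) or MYC replicate 2 (-0.44, adjusted p = 0.0837, all edgeR). The GC offset gave a larger difference, -0.81 ± 0.16 (edgeR adjusted p = 0.00213) or 1.75-fold lower, and the sign was negative in all 20 alternatives.

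Library 3 had the highest MALAT1 and the highest NEAT1 CPM of its group in both groups. From control library 1 to 2, however, MALAT1 fell from 672.7 to 569.3 CPM while NEAT1 rose from 325.7 to 405.8 CPM. A ratio within a library removes only a shift that both RNAs share, and widens an opposite one. In TPM, NEAT1 was 0.731, 0.56 and 0.66 times MALAT1 in MYC libraries, against 1.04, 1.58 and 1.28 times in control libraries. The ratio thus averaged 0.65 ± 0.09 in MYC and 1.30 ± 0.27 in control libraries (SD, n = 3 each) and did not overlap. In CPM, which leaves out the estimated transcript lengths, the gap was smaller, with a ratio of 0.35 ± 0.045 in MYC and 0.59 ± 0.115 in control libraries, again without overlap. The ratio was formed after the values were seen and is given without a test. The coefficient of variation of CPM was 15.2% in MYC and 17.1% in control libraries for MALAT1, and 23.5% in MYC and 17.3% in control libraries for NEAT1. For SNHG8 it was 1.91% in MYC and 4.71% in control libraries, and for SNHG15 2.53% in MYC and 4.21% in control libraries. SNHG12 had 16.0% in MYC and 11.5% in control libraries, and in MYC libraries it varied more than MALAT1.

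**Figure D3:**
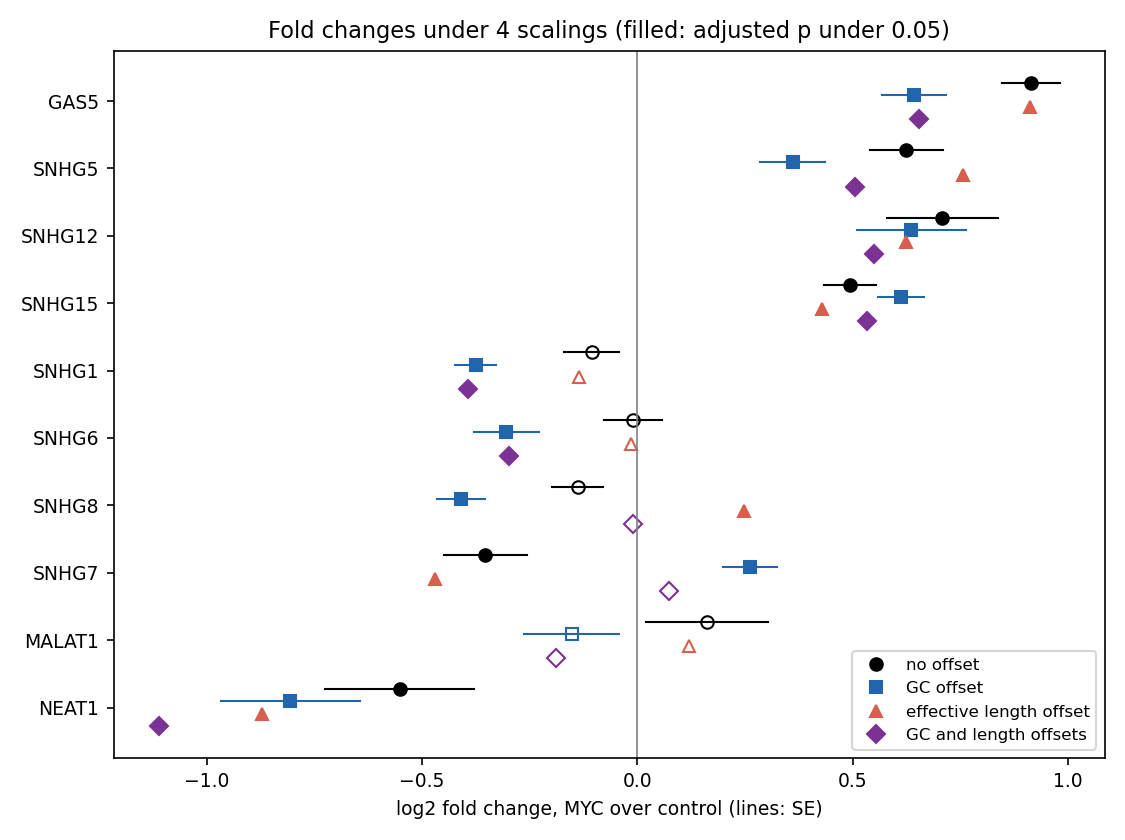
Log2 fold change of MYC over control for each RNA under 4 scalings, with lines of 1 SE for the fits without an offset and with the GC offset, and filled symbols for an adjusted p under 0.05. GAS5, SNHG5, SNHG12 and SNHG15 are right of 0 and NEAT1 left of 0 under all 4, SNHG1 and SNHG6 are left of 0 under all 4 and filled only with GC content taken into account, and SNHG7, SNHG8 and MALAT1 change sign.

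Levels can be compared between these genes only per length, in TPM. SNHG5 was the highest, at 1237 ± 50.3 TPM in MYC and 751.4 ± 101.3 TPM in control libraries (SD, n = 3 each), and GAS5 came next, at 552.7 ± 12.4 TPM in MYC and 300.4 ± 9.90 TPM in control libraries. SNHG1 followed, at 238.2 ± 27.04 TPM in MYC and 266.8 ± 7.35 TPM in control libraries. In MYC libraries the ranges of SNHG1 and SNHG8 overlapped, as did those of SNHG6 and MALAT1, and every other pair of neighbours in the order was separate. In control libraries NEAT1, SNHG6, SNHG8 and MALAT1 formed a run of overlapping neighbours between 153.7 and 197.1 TPM. NEAT1 stood 7th of the 10 in MYC libraries, at 106.1 ± 21.9 TPM, and 4th in control libraries, at 197.1 ± 35.3 TPM. At the low end were SNHG12, at 29.2 ± 7.996 TPM in MYC and 19.2 ± 2.38 TPM in control libraries, and SNHG7, at 17.98 ± 1.78 TPM in MYC and 25.3 ± 0.67 TPM in control libraries. The order of SNHG12 and SNHG7 differed between the groups in deposited TPM, but SNHG7 is without a direction, so no change of order is read from it.

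The 8 hosts together made up 2549, 2551 and 2518 TPM in MYC libraries, against 1939, 1684 and 1744 TPM in control libraries. GAS5 and SNHG5 were 70.5 ± 1.79% of this sum in MYC and 58.7 ± 1.52% in control libraries (SD, n = 3 each). MALAT1 and NEAT1 together made up 229.1, 251.5 and 329.7 TPM in MYC libraries, against 314.4, 326.7 and 411.4 TPM in control libraries. The sums of the hosts did not overlap between the groups, and those of the nuclear RNAs did, since MYC library 3 stood above controls 1 and 2. These sums follow from the member choice and are not tested. In bulk RNA, a change in the level per cell and a change in the mix of cells cannot be told apart.

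**Figure D4:**
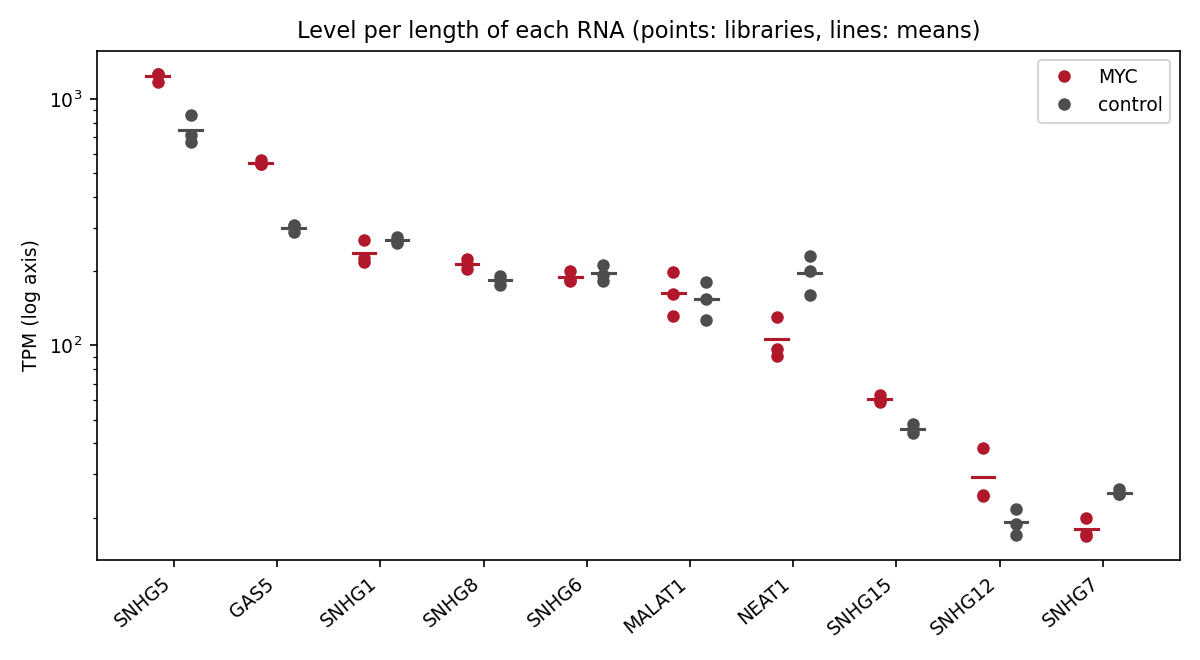
TPM of each RNA on a log axis, ordered by the MYC mean, with MYC left of control for each gene: points are libraries and short lines are means (n = 3 each). SNHG5 and GAS5 lead in both groups, NEAT1 lies at 90.3 to 131.1 TPM in MYC and 160.3 to 230.7 TPM in control libraries, and SNHG12 and SNHG7 are lowest.

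The deposited tables also give a mean transcript length per gene and library, estimated by the authors' software from the mix of a gene's transcripts. Groups did not overlap in this length for 6 of the 10 RNAs, beside 31% of the 14444 genes tested that have more than 1 transcript. Of the 6, 4 were longer in MYC libraries and 2 shorter, beside 14.2% and 16.8% of those genes. NEAT1 had the largest difference of the 10, at 3254, 3352 and 3721 bases in MYC libraries, against 2930, 2749 and 2840 bases in control libraries, which is 21.2% longer. Its row holds 4 transcripts, the longest of 22743 bases. SNHG8 went the other way, at 447.1, 440.4 and 444.2 bases in MYC libraries, against 496.6, 509.2 and 504.3 bases in control libraries, which is 11.8% shorter. SNHG7 was 7.51% longer, SNHG15 4.32% longer and SNHG6 2.11% longer in MYC libraries, and SNHG5 was 2.07% shorter. SNHG12, GAS5, SNHG1 and MALAT1 overlapped. TPM divides by the effective length, which is the transcript length less an allowance for the fragment length. For SNHG8 it was 222.6, 227.9 and 226.1 bases in MYC libraries, against 288.6, 317.9 and 288.8 bases in control libraries. The direction of SNHG8 turns between CPM and TPM with this length, since the same reads over a shorter one give a higher TPM. Median fragment lengths were 228.6, 216.5 and 222.5 bases in MYC libraries, against 209.6, 192.5 and 217.8 bases in control libraries.

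**Figure D5:**
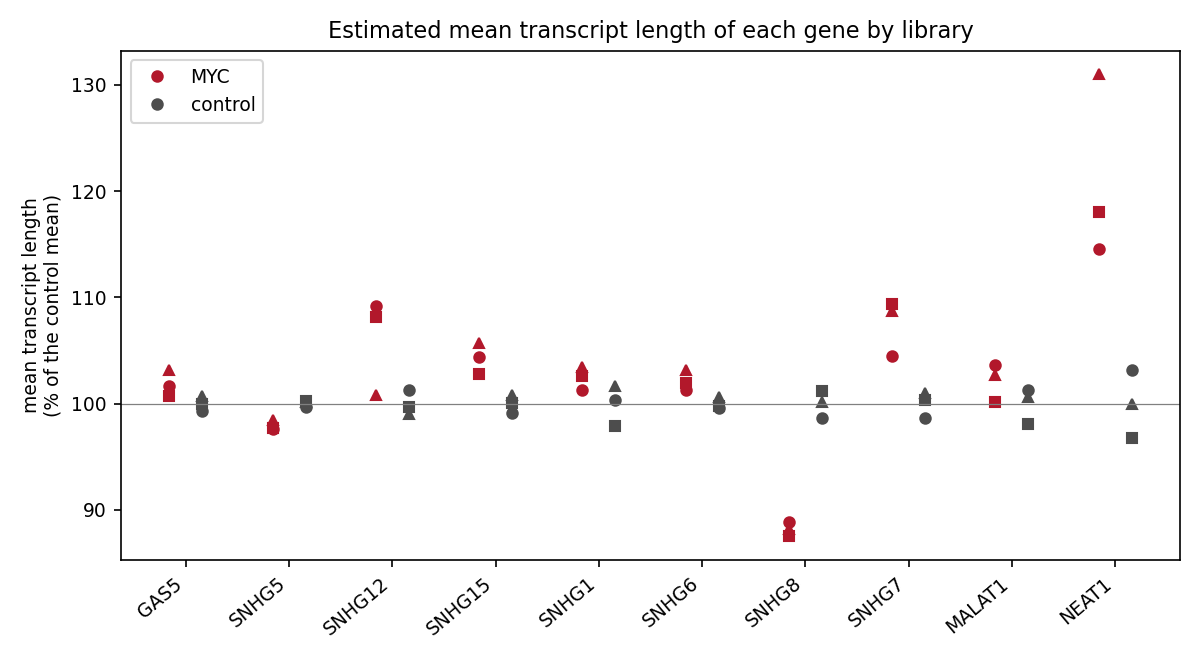
Estimated mean transcript length of each gene by library, in percent of its control mean, with MYC left of control for each gene and circles, squares and triangles for replicates 1, 2 and 3. NEAT1 is 21.2% longer on average in MYC libraries and SNHG8 11.8% shorter, the largest differences among the 10.

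The snoRNAs themselves were not measured. Of 29 snoRNA symbols of these hosts, 7 had a row of their own, and all 7 were listed at 0 in all 6 libraries. The rows of 7 of the hosts also list 16 snoRNA transcripts, of 69 to 137 bases, which are shorter than the median fragment length of 192.5 to 228.6 bases implied by the deposited lengths in these libraries. Mature snoRNAs carry no poly-A tail, and a host value here is not a measure of its snoRNAs. As examples, SNORD27 and SNORD30 come from SNHG1 introns and SNORA24 from SNHG8, and their sequences are shown from GENCODE 29 (chromosomes 11, 11 and 4) with the C and D boxes of the first pair, and the ACA box of SNORA24, in capitals.
SNORD27: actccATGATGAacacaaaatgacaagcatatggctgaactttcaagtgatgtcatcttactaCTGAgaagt
SNORD30: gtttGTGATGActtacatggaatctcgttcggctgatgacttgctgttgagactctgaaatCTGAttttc
SNORA24: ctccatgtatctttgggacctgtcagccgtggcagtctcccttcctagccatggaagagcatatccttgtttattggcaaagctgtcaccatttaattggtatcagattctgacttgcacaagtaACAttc

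Other noncoding snoRNA hosts went both ways. The counts of this and the following lists stand beside the 28.8% of all genes tested called higher and 32.1% called lower (25.4% and 33.6% with the GC offset). For long noncoding RNA genes as a class these shares were 13% and 30.9% (10.9% and 34.4% with the GC offset). Of 16 other noncoding hosts tested, 7 rose and 6 fell (9 and 6 after the GC offset). Their median log2 fold change was -0.004 (0.19 with the offset). SNHG14, a long host of the imprinted Prader-Willi region, rose 1.76-fold to 87.7 ± 2.71 CPM in MYC, against 49.7 ± 2.05 CPM in control libraries (adjusted p = 1.21e-05, edgeR). SNHG3 rose 1.65-fold (adjusted p = 1.79e-05, edgeR). SNHG20 fell 1.54-fold (adjusted p = 3.07e-05) and SNHG19, at 0.969 CPM in MYC and 2.77 CPM in control libraries, fell 2.86-fold (adjusted p = 3.4e-05, both edgeR). After the GC offset SNHG14 was 1.503-fold and SNHG3 1.36-fold higher, and SNHG20 was 1.61-fold and SNHG19 2.37-fold lower. Among the 38 protein-coding snoRNA hosts, 24 rose and 4 fell, and 25 and 2 with the GC offset, with a median of 0.38 (0.21 with the offset) beside -0.02 (-0.06) over all genes tested. HSPA8, which encodes the constitutive HSP70 chaperone, stood at 2288 ± 93.4 CPM in MYC and 735.7 ± 22.2 CPM in control libraries (SD, n = 3 each), 3.11-fold higher, or 2.62-fold after the offset. GNL3, a nucleolar GTPase, rose 1.93-fold, or 1.61-fold after it. Many of this list are ribosomal protein genes, which share reads with pseudogenes.

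The proteins that act on these RNAs were counted from lists, read against the same background. Of 19 snoRNP core and assembly proteins, 12 rose and 3 fell, and 11 and 2 with the GC offset (median log2 fold change 0.44, or 0.19 with the offset). NOP56, a core protein of box C/D particles, rose 1.56-fold, DKC1, the pseudouridine synthase of H/ACA particles, rose 1.497-fold, and NOLC1 and RUVBL1, which take part in snoRNP assembly, rose 1.62-fold and 1.54-fold. After the GC offset NOP56 was 1.51-fold, DKC1 1.30-fold, NOLC1 1.45-fold and RUVBL1 1.54-fold higher. NOP56 and DKC1 are also on the list of protein-coding snoRNA hosts, so their rises are counted in both lists. Of 17 factors of nonsense-mediated and 5′ to 3′ decay, 8 rose and 6 fell, but 2 rose and 6 fell with the GC offset (medians of 0.08 and 0.01). EIF4A3, a subunit of the exon junction complex, rose 1.36-fold and 1.20-fold with the offset. SMG9, a regulator of the decay kinase SMG1, stood at 31.8 ± 2.78 CPM in MYC and 47.3 ± 3.81 CPM in control libraries (1.49-fold lower, adjusted p = 0.000536, edgeR), but at a log2 fold change of 0.0077 with the offset (adjusted p = 0.9, edgeR), so it is given without a direction. The call of SMG8 (1.25-fold higher) ended with the offset.

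Of 14 paraspeckle proteins, 6 rose and 3 fell, and 5 and 2 with the GC offset (medians of 0.16 and 0.06). SFPQ, which NEAT1 needs to form paraspeckles, stood at 432.2 ± 18.3 CPM in MYC and 304.5 ± 10.1 CPM in control libraries (1.42-fold, adjusted p = 0.000121, edgeR). With the offset it was 1.17-fold higher (adjusted p = 0.0059, edgeR), and its call ended with both offsets together. MATR3, a nuclear matrix RNA-binding protein, was 1.44-fold higher, and 1.18-fold higher after that correction. Of 16 nuclear speckle proteins, 11 rose and 1 fell, but 2 rose and 3 fell with the GC offset (medians of 0.21 and -0.05). SRSF2, a splicing factor of the SR family, was 1.36-fold higher, and still 1.30-fold after it, while the calls of SRSF6 and SRSF7 ended with it. Of 14 other long noncoding RNAs tested, 7 rose and 2 fell, and 4 and 5 with the GC offset. Among all long noncoding RNA genes tested, 13% were called higher and 30.9% lower (10.9% and 34.4% with the GC offset). MIR17HG, the host of the miR-17-92 cluster and a known MYC target, stood at 1.98 ± 0.22 CPM in MYC and 0.994 ± 0.07 CPM in control libraries (1.95-fold, adjusted p = 0.000494, edgeR), or 1.55-fold higher after the offset. Of 15 RNAs without a poly-A tail, 8 were matched and 1 was tested, SNORD3A, which was 0.45 log2 units higher (edgeR adjusted p = 0.0346). Its call ended when any 1 library was left out, without an expression filter, with the GC offset and with DESeq2.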

How the data were processed

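Poly-A RNA of U266 cells was sequenced in 3 MYC and 3 control libraries, from a kit without strand marking, per the labels' protocols. The submitters' processing notes name cutadapt, TopHat2 and the build GRCh37. Tool versions and annotation: not given in the sources used here. The deposited tables are from RSEM, per the file headers, with an expected count, a TPM, an FPKM (not used) and mean and effective transcript lengths in bases for each gene and library. An expected count is an estimate that need not be whole. The deposited TPM sums to the same total in each library.

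Symbols matched 51996 of 57820 identifiers, with 98.3% of counts, and no row lacked an identifier. Expected counts were rounded to whole numbers. The test was edgeR 4.0.16 under R 4.3.3 (default filter, TMM factors, group only, quasi-likelihood F test, Benjamini-Hochberg adjustment over 17679 genes), and the SE was derived from the F statistic. CPM values use TMM factors. The GC offset is a loess curve per library (span 0.4), fitted to the deviation of log2 CPM from the gene's mean, on the mean GC content of GENCODE 29 transcripts, matched for 96.4% of genes tested. Gene overlaps come from GENCODE 29 on GRCh38 and are those of whole gene spans, introns included. Counts were also simulated from the means and spread of these libraries (17382 genes). Only 67, 67 and 66 genes, all above a minimum mean count, were changed there, by 1.5-fold, 2-fold and 4-fold. The share recovered was 68.7%, 91.0% and 100%, and 17 of 190 calls were unchanged genes. Far more genes were called in the real data (60.8%), which changes the adjusted threshold, so these shares do not carry over directly. Summed counts per library limit the precision of low genes, and intervals cover the spread between libraries only. All libraries differed by more than sampling noise (lowest chi-square over its degrees of freedom 8.64, within a group).

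The members, the 15 other lists and the tests were chosen with earlier results of these data known, so no pattern here is independent support for those. All members are named, and from each list up to 4 called genes with a mean CPM of at least 1, by smallest adjusted p, could be named, a choice made by that rule and shortened in the text. Of the snoRNA sequences and promoters, examples are shown. Alternatives were RLE factors, total counts, DESeq2 1.42.0, limma-voom and limma on log2(TPM + 1) and log2(TPM + 0.1) (limma 3.58.1), no filter, mean CPM of at least 5, effective length and GC offsets, a replicate block, leaving out MYC and the 20 most abundant genes, and leaving out each library.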

Additional observations from a re-analysis of the deposited data

How the results depend on the processing

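GAS5, SNHG5, SNHG12 and SNHG15 were called higher in all 20 alternatives, with log2 fold changes of 0.64 to 0.96, 0.36 to 0.76, 0.55 to 0.79 and 0.39 to 0.61, and NEAT1 was lower in all 20 (-1.11 to -0.44) and called in 16. The count of RNAs called lower was 4 with the GC offset and 4 with the GC offset and replicate block, against 2 as reported, and ranged from 1 to 3 when 1 library was left out (1 without control replicate 2 or 3 or MYC replicate 1 or 2, each through NEAT1). The count called higher ranged from 4 to 5, but the additional RNA was not the same throughout. It was SNHG7 with the GC offset, with or without the replicate block. With the effective length offset and in the limma fits of log2 TPM it was SNHG8. Over all genes, 3694 were called lower with a mean CPM of at least 5, where fewer genes were tested, and leaving out 1 library gave 4184 to 5076 higher and 4925 to 5809 lower.

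SNHG7 reversed with the GC offset (0.26), that offset with the replicate block (0.26) and both offsets (0.073). SNHG8 turned positive with the effective length offset (0.25) and in limma fits of log2(TPM + 1) at 0.21 and log2(TPM + 0.1) at 0.22. SNHG8 was called lower with a mean CPM of at least 5 (-0.15). MALAT1 reversed with the GC offset (-0.15), that offset with the replicate block (-0.15, adjusted p = 0.0719, edgeR) and both offsets (-0.19), uncalled each time. SNHG6 reversed at near 0 with RLE factors (0.0086), DESeq2 (0.0080) and without MYC replicate 3 (0.041), and leaving out 1 library gave -0.059 to 0.041. The cause of these changes was not tested beyond the length and GC values given.

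The replicate block alone changed no call among the 10 RNAs: GAS5 was 0.91 and NEAT1 -0.56 with it. Same-numbered libraries had correlations of deviations of -0.05, 0.08 and 0.11, so the numbers are not taken to pair the samples. Control libraries 1 and 2 each correlated best with a MYC library of another number. With 3 libraries a group and spreads of over 15% for MALAT1 and NEAT1, small changes of these RNAs were not detectable.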
